A study of Homo sapiens with 15 samples.

Results

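Kallikreins are secreted serine proteases encoded side by side on chromosome 19, and 8 of them were followed here through the derivation of drug-resistant VCaP prostate cancer cells. The genes were KLK1, KLK2, KLK3 (whose product is prostate-specific antigen, PSA), KLK4, KLK10, KLK11, KLK12 and KLK15, taken by name from the 58381 genes of the count tables. Of the 8, the 4 genes KLK2, KLK3, KLK4 and KLK15 had enough fragments to be tested among 19621 genes, and the remaining 4 are given mainly as counts. VCaP is an established cell line from a prostate cancer metastasis. Bulk RNA-seq covered 5 sublines with 3 libraries each, 15 in all. VCaP-T is the androgen-sensitive start, kept for 7 months at 10 nM testosterone. VCaP-CT came from VCaP-T after 10 months at 0.1 nM testosterone, and it and its descendants are labelled as resistant in androgen sensitivity. VCaP-CT-ER came from VCaP-CT after growth in the antiandrogen enzalutamide (ENZ) at 10 µM. VCaP-CT-BR came from VCaP-CT after growth in bicalutamide, an older antiandrogen, and VCaP-CT-BR-ER from VCaP-CT-BR after ENZ. The base medium of all sublines was RPMI 1640 with 10% DCC-FBS.

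The labels differ among themselves in 2 points. The treatment field of the 12 later libraries gives 10 nM testosterone for the 10-month period, where the protocol text gives 0.1 nM. For VCaP-CT-BR the text names bicalutamide and then ENZ, so whether these libraries had seen ENZ is not clear. Each subline is 1 line of descent, so drug, time in culture and chance differences between lines cannot be told apart.

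Androgens act on many prostate genes through paired 6-base half-sites in DNA, the androgen response elements. KLK2 and KLK3 are among the best known androgen-induced genes of prostate epithelium, which is why serum PSA is used to follow prostate cancer and its treatment. The kallikrein proteins are made as inactive precursors, activate one another by cleavage, and act on seminal, matrix and growth factor-binding proteins.

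The stretches just upstream of KLK3, KLK2 and KLK4 are shown because these neighbouring genes moved by very different amounts. The sequences are those of RefSeq on GRCh38.p14, the 250 bases before the annotated start, read 5′ to 3′ on the strand of the gene. KLK3 is chr19:50854665-50854914 on the plus strand, KLK2 is chr19:50873189-50873438 on the plus strand, and KLK4 is chr19:50910739-50910988 on the minus strand. Capitals mark the best match to an androgen response element, AGAACA and TGTTCT with any 3 bases between them, where it had at most 3 mismatches in the 12 fixed positions.
KLK3: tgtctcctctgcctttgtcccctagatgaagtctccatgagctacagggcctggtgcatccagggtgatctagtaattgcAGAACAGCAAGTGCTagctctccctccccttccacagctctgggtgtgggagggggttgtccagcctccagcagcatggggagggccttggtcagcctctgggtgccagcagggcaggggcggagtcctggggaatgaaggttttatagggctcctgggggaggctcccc
KLK2: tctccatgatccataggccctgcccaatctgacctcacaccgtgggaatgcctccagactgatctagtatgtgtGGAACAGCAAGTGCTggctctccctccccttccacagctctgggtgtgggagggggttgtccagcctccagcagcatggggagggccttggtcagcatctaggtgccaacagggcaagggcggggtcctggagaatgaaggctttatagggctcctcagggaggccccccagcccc
KLK4: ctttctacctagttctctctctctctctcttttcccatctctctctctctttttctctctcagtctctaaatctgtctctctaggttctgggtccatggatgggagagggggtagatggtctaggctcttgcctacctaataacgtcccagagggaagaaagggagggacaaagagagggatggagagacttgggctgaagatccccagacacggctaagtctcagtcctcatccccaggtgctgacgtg

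The match in KLK3 lay 170 to 156 bases upstream of the start and had 2 mismatches, T10A and T13G (the element's base, its position from 1 at the 5′ end, then the base found). The match in KLK2 lay 176 to 162 bases upstream and had 3, A1G, T10A and T13G. In KLK4 the best match had 6 mismatches and is not marked. RefSeq has another KLK4 start further upstream, whose best match had 5, and the window shown is the one at the start of the counting annotation. An element with at most 2 mismatches occurred in 1.18% of 35116 promoter windows of the same length, and one with at most 3 in 9.17%. A single half-site, AGAACA or TGTTCT, was found in 12.4% of windows, in KLK3 once and in KLK2 and KLK4 not at all. The letters TATAAA, searched on both strands and held by 10.7% of windows, occurred on the opposite strand beginning 28 bases before the start of KLK3 and 34 before that of KLK2. In a global alignment with gaps of the 250 bases, KLK3 and KLK2 were identical at 211 positions (84.4%), against 142 (56.8%) for KLK3 and KLK4. The start used for KLK2 is that of RefSeq, since the counting annotation begins this gene further upstream. At both RefSeq starts of KLK15, whose windows are not shown, the best match had 5 mismatches and there was no half-site. KLK15 fell 2.93-fold at the step to low testosterone and KLK2 1.81-fold. Such matches describe the letters only, and a link to the changes was not tested.

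Library totals lay between 33665716 and 46935279 counted fragments, and 3 counts were taken as the floor. The 9 markers of prostate adenocarcinoma and VCaP cells used here were above the floor in every subline, with a summed level of 8095 to 8138 CPM in VCaP-T and 4771 to 7005 CPM elsewhere, where CPM is counts scaled by library size to a common total. Among markers of other cell types, the 5 neuroendocrine genes summed to 234 to 244 CPM in VCaP-T. In the other sublines their sum was 11.6 to 40.3 CPM. CHGB stood at 159 CPM in VCaP-T and at most 1.27 CPM elsewhere. CHGA was below the floor in VCaP-T, with a mean of 0.0170 CPM, and at 0 elsewhere. SYP and INSM1 were also highest in VCaP-T. NCAM1 went the other way in VCaP-CT-ER, where it was highest, at 29.1 CPM against 6.99 CPM in VCaP-T. The 7 fibroblast genes summed to 185 to 251 CPM in the ENZ-resistant sublines and 7.65 to 25.4 CPM elsewhere, nearly all LUM in the former, with COL1A2 at 0 throughout. The 6 immune genes reached 45.4 to 59.3 CPM in VCaP-T through LYZ and at most 2.21 CPM elsewhere, with CD3E at 0, and the 5 endothelial genes stayed at or below 16.6 CPM with KDR at 0. The part of these genes in the kallikrein results was not tested.

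KLK3 encodes PSA, the protease that cleaves semenogelins and liquefies semen. It changed more between the sublines than any other tested kallikrein. In the 3 VCaP-T libraries it stood at 3617, 3532 and 3532 CPM, from 129774 to 150035 fragments. The VCaP-CT libraries had 32.6, 34.5 and 32.3 CPM, those of VCaP-CT-ER 527, 535 and 499 CPM. After bicalutamide KLK3 stood at 14.4, 14.4 and 13.5 CPM, and VCaP-CT-BR-ER had 38.1, 42.0 and 40.0 CPM. No 2 sublines overlapped, and the 5 levels fell in the order VCaP-T, VCaP-CT-ER, VCaP-CT-BR-ER, VCaP-CT and VCaP-CT-BR. Every pair of neighbours in this order passed the test, the closest being VCaP-CT-BR-ER and VCaP-CT, which differed 1.21-fold (edgeR adjusted p = 1.20e-04).

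The step to low testosterone lowered KLK3 107-fold, so that it fell by 6.75 log2 units with a standard error (SE) of 0.06 (edgeR adjusted p = 1.30e-25). By size of the fall, it was number 77 of the 19621 genes. The ENZ step from VCaP-CT raised it 15.7-fold (log2 change 3.97, SE 0.05, edgeR adjusted p = 1.95e-22), to a level still 6.84-fold below VCaP-T. The bicalutamide step lowered it 2.35-fold further (log2 fold change −1.23, edgeR adjusted p = 2.08e-13). From there the ENZ step raised it 2.83-fold (log2 fold change 1.50, edgeR adjusted p = 4.69e-15). As in all bulk RNA, fewer cells that express a gene and less RNA per cell cannot be told apart.

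**Figure D1:**
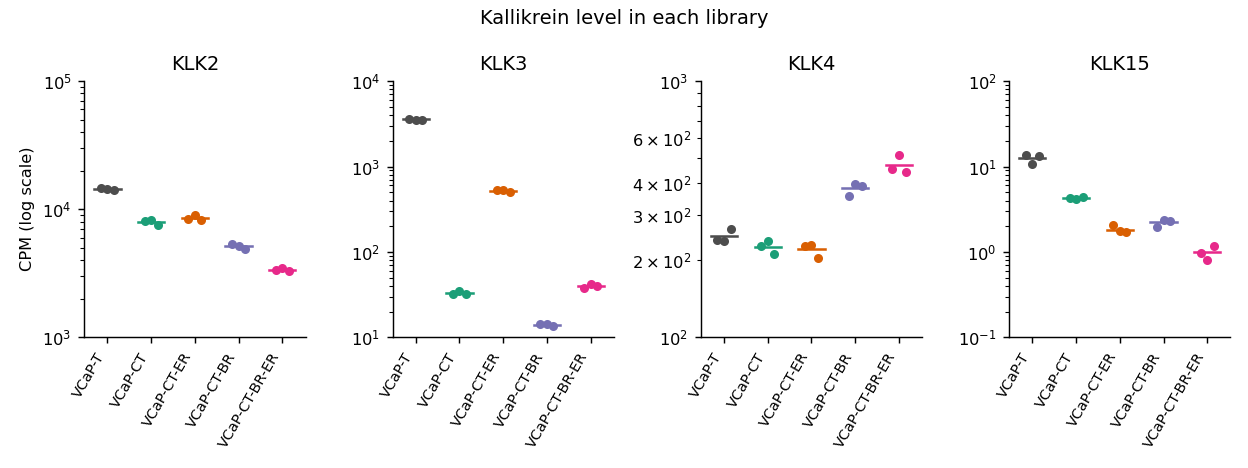
Level of 4 kallikreins in each of the 15 libraries, in CPM on a log axis whose range differs between panels; points are libraries and lines the mean of the 3 libraries of a subline. KLK3 spans from 13.5 to 3617 CPM, whereas KLK4 stays between 205 and 514 CPM and is highest in VCaP-CT-BR-ER.

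KLK2, kallikrein-related peptidase 2, is a trypsin-like protease that can activate the PSA precursor. It was the most abundant kallikrein in every library, also per length. Its level was 14767, 14387 and 14148 CPM in VCaP-T. The VCaP-CT libraries had 8059, 8235 and 7590 CPM, those of VCaP-CT-ER 8444, 8986 and 8175 CPM, and these 2 sublines overlapped. After bicalutamide KLK2 stood at 5323, 5187 and 4906 CPM, and VCaP-CT-BR-ER had 3351, 3459 and 3274 CPM, which lay below all others and did not overlap.

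The step to low testosterone lowered KLK2 1.81-fold (log2 change −0.86, SE 0.05, edgeR adjusted p = 1.92e-12), against 107-fold for the neighbouring KLK3. The bicalutamide step lowered it 1.55-fold (log2 fold change −0.63, edgeR adjusted p = 8.80e-10) and the following ENZ step 1.53-fold (log2 fold change −0.61, edgeR adjusted p = 1.72e-09). From VCaP-CT to VCaP-CT-ER the log2 fold change was 0.10 (95% interval −0.00 to 0.20) and did not pass (edgeR adjusted p = 0.0786). With DESeq2 the same comparison passed (0.11, adjusted p = 0.0459), and it passed in 5 of 20 alternatives (adjusted p from 0.00345 to 0.270). The others were no filter (0.13) and leaving out VCaP-CT-ER replicate 3 (0.15), VCaP-CT replicate 2 (0.13) or VCaP-CT-BR replicate 1 (0.11). At the end of the bicalutamide branch, VCaP-CT-BR-ER, KLK2 lay 4.29-fold below VCaP-T.

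Fragments of KLK2 and KLK3 could be told apart nearly everywhere in the counted exons. Of the 4492 windows of 50 bases in the exons of KLK3, 11 (0.245%) occurred identically in those of KLK2, and none of the 4342 windows of 100 bases did. Fragments that align equally well in both genes were not counted for either.

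KLK4, a protease known for its part in tooth enamel maturation and expressed in prostate epithelium under androgen control, was highest on the bicalutamide branch. Its level was 240, 238 and 264 CPM in VCaP-T. The VCaP-CT libraries had 228, 237 and 211 CPM, those of VCaP-CT-ER 228, 229 and 205 CPM. After bicalutamide KLK4 stood at 357, 398 and 388 CPM, and VCaP-CT-BR-ER had 453, 514 and 443 CPM. All 6 libraries of the bicalutamide branch lay above all 9 others. The VCaP-CT libraries lay just below those of VCaP-T and overlapped with those of VCaP-CT-ER.

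The bicalutamide step raised KLK4 1.69-fold (log2 change 0.76, SE 0.07, edgeR adjusted p = 4.82e-09), where it lowered KLK2, KLK3 and KLK15. The ENZ step that followed raised it 1.23-fold (log2 fold change 0.30, edgeR adjusted p = 6.59e-04), and the end of this branch lay 1.90-fold above VCaP-T. From VCaP-T to VCaP-CT the log2 fold change was −0.14 (95% interval −0.27 to −0.00, edgeR adjusted p = 0.0708). It passed with DESeq2 (−0.16, adjusted p = 0.0382) and in 10 of 20 alternatives (adjusted p from 0.0209 to 0.221). These included leaving out VCaP-T replicate 1 (−0.17), VCaP-CT replicate 2 (−0.18), or, each with −0.15, VCaP-CT-ER replicate 1 or 3, VCaP-CT-BR replicate 1 or 2, and VCaP-CT-BR-ER replicate 2 or 3. From VCaP-CT to VCaP-CT-ER it was −0.03 (95% interval −0.17 to 0.10, edgeR adjusted p = 0.702). VCaP-CT-ER against VCaP-T passed, with a log2 change of −0.17 (edgeR adjusted p = 0.0269). This call was lost with upper-quartile scaling (adjusted p = 0.0522), without VCaP-CT-ER replicate 3 (−0.11) and without VCaP-T replicate 3 (−0.12), with adjusted p from 0.0178 to 0.144 over the alternatives.

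KLK15, a trypsin-like kallikrein that can also activate the PSA precursor, was expressed at a low level and fell at every step. It stood at 13.7, 10.8 and 13.3 CPM in VCaP-T. The VCaP-CT libraries had 4.26, 4.21 and 4.42 CPM, those of VCaP-CT-ER 2.05, 1.75 and 1.69 CPM. After bicalutamide KLK15 stood at 1.94, 2.38 and 2.33 CPM, and VCaP-CT-BR-ER had 0.972, 0.813 and 1.18 CPM, the latter from 30 to 45 fragments. Only VCaP-CT-BR and VCaP-CT-ER overlapped.

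KLK15 fell 2.93-fold at the step to low testosterone (log2 change −1.55, SE 0.11, edgeR adjusted p = 9.16e-11). The ENZ step that raised KLK3 lowered KLK15 2.34-fold (log2 change −1.22, SE 0.14, edgeR adjusted p = 9.36e-08). It fell 1.93-fold at the bicalutamide step (edgeR adjusted p = 4.75e-06) and 2.24-fold at the ENZ step after it (edgeR adjusted p = 9.65e-06). VCaP-CT-ER and VCaP-CT-BR could not be ordered, with a log2 change of −0.27 (95% interval −0.58 to 0.03, edgeR adjusted p = 0.123). A long non-coding gene on the other strand spans part of KLK15 without sharing an exon base with it, and had 13 to 48 fragments a library.

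**Figure D2:**
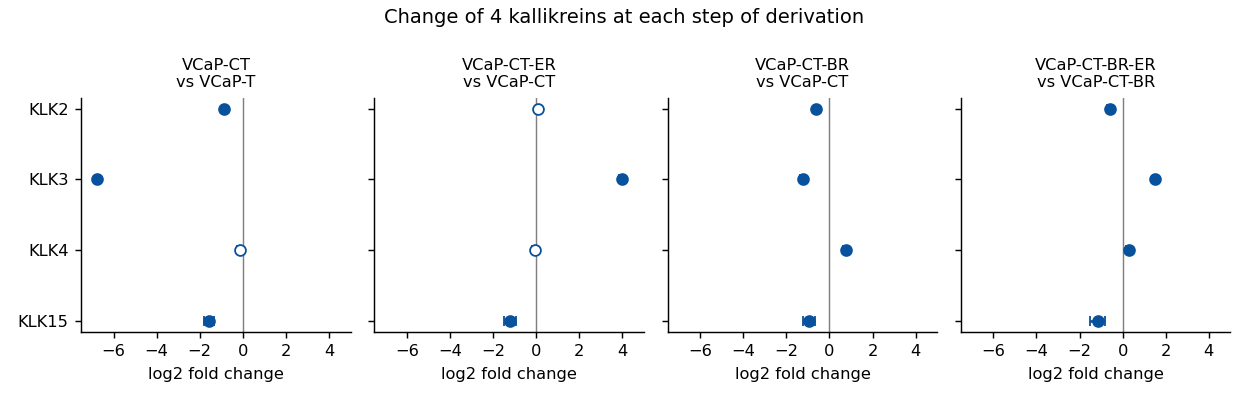
Log2 fold change of 4 kallikreins at each of the 4 derivation steps, with 95% intervals from edgeR that are mostly narrower than the points; filled points passed an adjusted p of 0.05 and open points did not. KLK3 moves from −6.75 at the step to low testosterone to 3.97 at the ENZ step, while KLK15 lies below 0 in all 4 panels.

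The other 4 members were at or near the limit of detection, and KLK1, KLK10 and KLK11 had their highest counts in VCaP-T. KLK1, tissue kallikrein, which releases kinins from kininogen, had 12, 13 and 7 fragments in VCaP-T and 4, 3 and 2 in VCaP-CT. With ENZ (VCaP-CT-ER) it had 0, 0 and 2, after bicalutamide 1, 1 and 0, and at the end of that branch 2, 1 and 0. Summed over 3 libraries and scaled to their totals, VCaP-T exceeded VCaP-CT 3.23-fold, with an exact 95% interval of 1.50 to 7.68 that covers counting error only. In the fit without a filter, VCaP-CT against VCaP-T did not pass for KLK1 (log2 fold change −1.66, edgeR adjusted p = 0.0504). It passed for KLK11 (−4.93, edgeR adjusted p = 1.76e-06), but not for KLK10 (−0.85, edgeR adjusted p = 0.285) or KLK12 (−0.70, edgeR adjusted p = 0.869).

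KLK11, known from brain and prostate, had 20, 14 and 10 fragments in VCaP-T. In all 12 later libraries together it had 5, and in VCaP-CT-ER it had 0, for which the exact 95% counting interval of the ratio of VCaP-T to VCaP-CT-ER began at 13.1. Against VCaP-CT, with 1 fragment, the ratio was 39.9 (95% counting interval 6.80 to 1612). KLK10, first described as a gene of normal epithelium, had 5, 14 and 13 fragments in VCaP-T and 2, 5 and 9 in VCaP-CT, a ratio of 1.81 (95% counting interval 0.967 to 3.54) whose interval holds 1. It had 7 fragments in the 3 VCaP-CT-ER libraries, 9 after bicalutamide and 10 after bicalutamide and ENZ. KLK12 had 5 fragments in all 15 libraries and at most 2 in any of them.

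**Figure D3:**
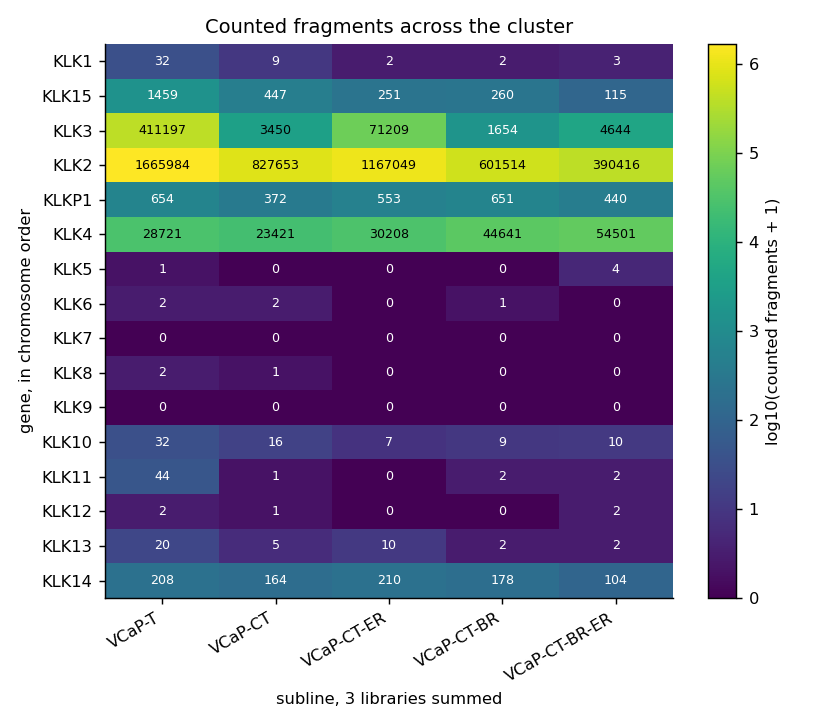
Counted fragments of the 16 kallikrein genes of the cluster, in chromosome order from top to bottom, summed over the 3 libraries of each subline (numbers) and coloured by log10 of the sum plus 1. Fragments concentrate in the block from KLK15 to KLK4, with KLK14 at the far end (104 to 210), while KLK7 and KLK9 have 0.

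Together the 8 genes took 1.84%, 1.81% and 1.80% of all counted fragments in VCaP-T, and a smaller share in every other library. The VCaP-CT libraries gave 0.773% to 0.843%, those of VCaP-CT-ER 0.900% to 1.00%, those of VCaP-CT-BR 0.531% to 0.569% and the last subline 0.372% to 0.399%, with no overlap between sublines. KLK2 made up 79.1% ± 0.244 (SD, n = 3) of the kallikrein fragments in VCaP-T and 96.8% ± 0.0449 in VCaP-CT. KLK3 made up 19.5% ± 0.142 of them in VCaP-T and 0.403% ± 0.0103 after the step to low testosterone, and its part was 5.62% ± 0.122 with ENZ. In VCaP-CT-BR-ER, KLK4 made up 12.1% ± 0.575 and KLK3 1.03% ± 0.0379.

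Levels of different genes were compared per kilobase of exon (RPKM). The length is that of all annotated exons, 6394 bases for KLK2, 4639 for KLK3 and 1935 for KLK4. Ratios and ranks between genes depend on it, and the transcripts in use may be shorter. KLK2 exceeded KLK3 by 2.94 ± 0.0304-fold (SD, n = 3) in VCaP-T. This ratio was 174 ± 4.49 in VCaP-CT and 11.9 ± 0.282 once resistant to ENZ (VCaP-CT-ER). The bicalutamide branch had ratios of 264 ± 3.46 before ENZ and 61.0 ± 2.45 after it. The order of KLK3 and KLK4 changed sides between sublines. KLK3 lay 6.01 ± 0.382-fold above KLK4 in VCaP-T. In VCaP-CT-ER the 2 genes were level by this measure (ratios of KLK4 to KLK3 from 0.982 to 1.04), at means of 521 CPM for KLK3 and 221 CPM for KLK4. KLK4 lay 16.3 ± 0.576-fold above KLK3 in VCaP-CT and 64.7 ± 4.96-fold in VCaP-CT-BR. Among all genes ranked by RPKM, KLK2 stood between places 18 and 20 in VCaP-T and between 96 and 98 in VCaP-CT-BR-ER. KLK3 stood between places 48 and 56 in VCaP-T and between 8718 and 9033 in VCaP-CT-BR.

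**Figure D4:**
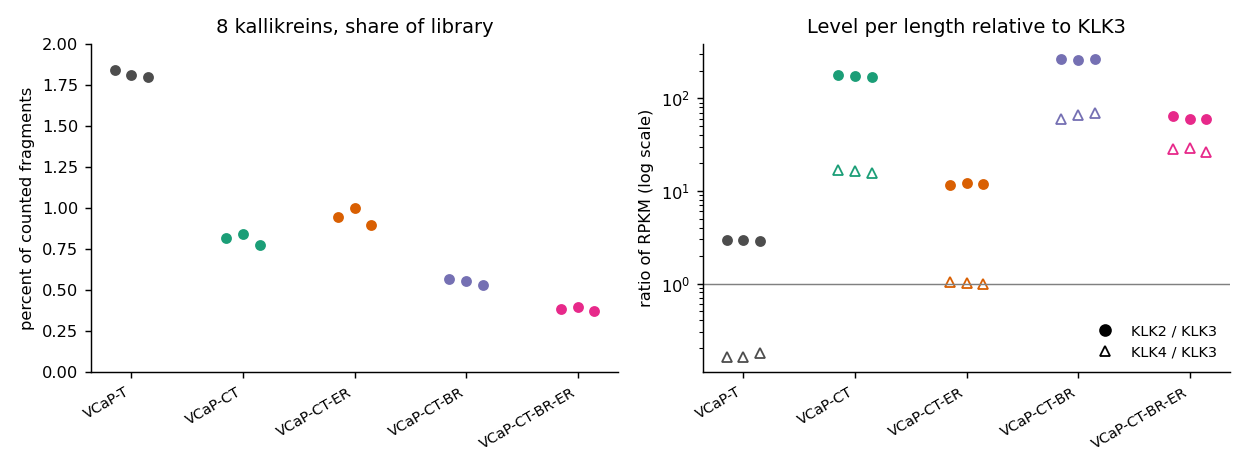
Left, percent of counted fragments held by the 8 kallikreins in each library; right, RPKM of KLK2 (circles) and KLK4 (triangles) divided by that of KLK3, on a log axis with a line at equal levels. The share is 1.80% or more in VCaP-T and 0.399% or less in VCaP-CT-BR-ER, and KLK4 lies below KLK3 in VCaP-T but above it in VCaP-CT and on the bicalutamide branch.

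Because the sublines differ widely, the number of kallikreins that passed has to be read against all genes. VCaP-CT against VCaP-T passed for 3 of the 4 tested kallikreins, beside 65.3% of all tested genes. VCaP-CT-ER against VCaP-CT passed for 2 of 4, KLK3 and KLK15, beside 60.9%. VCaP-CT-BR against VCaP-CT passed for 4 of 4, beside 53.2%, and VCaP-CT-BR-ER against VCaP-CT-BR for 4 of 4, beside 42.9%. All 4 passed for VCaP-CT-ER set against VCaP-T, where 69.0% of genes did, in VCaP-CT-BR against VCaP-T (71.2%) and in VCaP-CT-BR-ER against VCaP-T (70.2%). The last comparison gave log2 fold changes of −6.47 for KLK3, −2.10 for KLK2, −3.67 for KLK15 and 0.92 for KLK4. Passing the test therefore does not set the kallikreins apart, and their sizes and directions are what the values show. The comparisons share sublines and are not independent.

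Both ENZ-resistant sublines descend from VCaP-CT, 1 of them by way of bicalutamide. They differed in all 4 tested kallikreins, beside 45.9% of genes. VCaP-CT-BR-ER lay 13.0-fold below VCaP-CT-ER in KLK3 (log2 fold change −3.70, edgeR adjusted p = 6.70e-22), 2.54-fold below in KLK2 (−1.34, edgeR adjusted p = 3.47e-15) and 1.85-fold below in KLK15 (−0.89, edgeR adjusted p = 2.05e-04). KLK4 lay 2.13-fold above (1.09, edgeR adjusted p = 1.37e-11).

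Whether the ENZ step itself differed between the branches was tested as an interaction, which passed for 3 of 4 kallikreins beside 49.7% of genes. The rise of KLK3 was smaller after bicalutamide, with a difference of −2.47 on the log2 scale (standard error 0.07, edgeR adjusted p = 2.74e-16). For KLK2 the difference was −0.71 (standard error 0.07, edgeR adjusted p = 2.62e-08), and for KLK4 it was 0.33 (standard error 0.09, edgeR adjusted p = 0.00471). For KLK15 it was 0.06 (95% interval −0.41 to 0.53, edgeR adjusted p = 0.844), an interval that holds 0.

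Of the other 8 genes of the cluster only KLK14, a trypsin-like protease of skin, and the pseudogene KLKP1 were tested. KLK14 had 1.32 to 2.21 CPM in VCaP-T and 0.753 to 1.03 CPM in VCaP-CT-BR-ER. It did not pass at the first 3 steps, with log2 fold changes between −0.18 and −0.04, and fell at the ENZ step after bicalutamide (−0.76, edgeR adjusted p = 0.0160). KLKP1, which lies between KLK2 and KLK4, fell from 5.67 ± 0.301 to 3.58 ± 0.362 CPM at the step to low testosterone (log2 fold change −0.66, edgeR adjusted p = 8.60e-06). It rose to 5.56 ± 0.241 CPM at the bicalutamide step (0.64, edgeR adjusted p = 2.54e-05) and fell again at the following ENZ step (−0.55, edgeR adjusted p = 1.27e-04). KLK5, KLK6 and KLK8 each had at most 5 fragments in the 15 libraries together, and KLK13 had 39.

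Across the 15 libraries, log2 CPM of KLK2 correlated with KLK15 (Pearson r = 0.88, Spearman rho = 0.70) and KLK3 (0.80 and 0.69), and inversely with KLK4 (−0.83 and −0.59). The points are 5 clusters of 3 libraries, so these values describe the subline means and carry no p. The genes whose log2 CPM followed KLK3 most closely, among 12715 genes outside the cluster, were OS9 (r = 0.9905), DAZAP2 (0.9903), UNC13A (0.9899), the unnamed gene ENSG00000264112 (0.9894) and PKDCC (0.9856). UNC13A, whose mean went from 267 to 10.9 and then 53.0 CPM over VCaP-T, VCaP-CT and VCaP-CT-ER, had a wide range like KLK3, whereas OS9 moved only from 206 to 127 and 171 CPM. The genes closest to KLK2 were RNF212 (0.9893), ACSL5 (0.9812) and CHKA (0.9808), and those closest to KLK4 were SLC5A6 (0.9554), TPM4 (0.9421) and SUGP2 (0.9389).

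The kallikreins were set beside 18 other genes of an androgen response list used in the field, all of them tested. At the step to low testosterone 8 rose and 9 fell, beside 33.1% and 32.2% of all genes, with a median log2 fold change of −0.19 against 0.03 for all genes. ABCC4, a drug and prostaglandin efflux pump, fell most (−2.30), then MAF (−2.27), and PTGER4, a prostaglandin receptor, rose most (3.14), among the genes with a mean log2 CPM of at least 1. At the ENZ step from VCaP-CT 10 rose and 6 fell (all genes 29.6% and 31.2%), led under the same limit by EAF2 (1.59) and PTGER4 (1.20). ABCC4 and MAF were among those that fell, with log2 fold changes of −0.26 and −0.74. At the bicalutamide step 9 rose and 2 fell (26.1% and 27.0%), and at the ENZ step after it 5 rose and 11 fell (21.2% and 21.7%). HERC3 fell at both ENZ steps (−1.19 and −1.14). The difference between the ENZ steps was called above 0 for 0 and below 0 for 10 of the 18 (25.2% and 24.5%), beside KLK3 and KLK2 called below 0, KLK4 called above 0 and KLK15 not called. FKBP5, a chaperone of steroid receptors, went from 419 to 123 CPM at the step to low testosterone and from there to 250 CPM with ENZ. It stood at 137 CPM after bicalutamide and 160 CPM after both drugs, the same order as KLK3 except between VCaP-CT and VCaP-CT-BR.

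**Figure D5:**
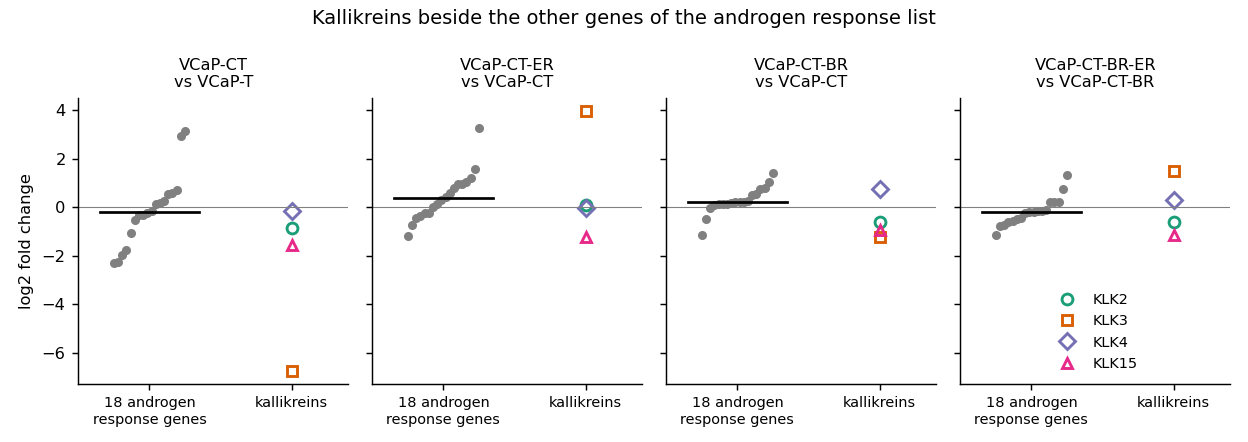
Log2 fold change of 18 androgen response genes (grey points, sorted; black line, median) beside 4 kallikreins at each derivation step. KLK3 at −6.75 lies below all 18 genes at the step to low testosterone, and KLK4 at 0.76 and KLK2 at −0.63 lie on opposite sides of 0 at the bicalutamide step.

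Of 13 substrates and receptors of kallikreins, 8 were tested. At the step to low testosterone 2 rose and 5 fell (all genes 33.1% and 32.2%), and at the ENZ step from VCaP-CT 3 rose and 3 fell (29.6% and 31.2%). At the bicalutamide step 4 rose and 1 fell (26.1% and 27.0%), and at the ENZ step after it 3 rose and 2 fell (21.2% and 21.7%). IGFBP3, a PSA substrate that binds insulin-like growth factors, fell from 23.3 to 10.0 CPM at the first of these (log2 fold change −1.21). It reached 253 CPM in VCaP-CT-ER (4.66) and 118 CPM in VCaP-CT-BR (3.55). F2R, the thrombin receptor, fell at the ENZ step from VCaP-CT to a mean of 4.76 CPM (−1.92). The PSA substrates SEMG1 and SEMG2 had at most 0.241 CPM in the mean of any subline.

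Of 13 kallikrein inhibitors, 8 were tested, of which 4 rose and 3 fell at the step to low testosterone (all genes 33.1% and 32.2%) and 4 rose and 3 fell at the ENZ step from VCaP-CT (29.6% and 31.2%). At the bicalutamide step 0 rose and 3 fell (26.1% and 27.0%), and at the ENZ step after it 0 rose and 2 fell (21.2% and 21.7%). SPINK1, a secreted trypsin inhibitor, moved in the same directions as KLK3 at the first 2 steps, going from 45.6 to 5.52 CPM (log2 fold change −3.04) and then to 87.1 CPM (3.98). The means of the bicalutamide branch were 5.82 CPM in VCaP-CT-BR and 6.72 CPM in VCaP-CT-BR-ER. SERPINA5, protein C inhibitor, which binds PSA and KLK2 in semen, rose from 11.3 to 18.8 CPM at the step to low testosterone (0.74). It fell to 2.29 CPM in VCaP-CT-ER (−3.05) and 3.74 CPM in VCaP-CT-BR (−2.33), and further to 1.44 CPM in VCaP-CT-BR-ER (−1.38).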

How the data were processed

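RNA of 5 VCaP sublines was sequenced as paired reads, with 3 libraries each. STAR 2.5.4b was used by the authors for alignment to GRCh38, and they deposited raw fragment counts per gene from featureCounts 1.6.2 on GENCODE release 28, without regard to strand and without fragments that align to several places or overlap several genes. Gene names were matched on the Ensembl identifier in GENCODE release 44, for 98.9% of 58381 genes. Counts were scaled with TMM factors to CPM and, with the exon length in the files, to RPKM. The quasi-likelihood F test of edgeR 4.0.16 (R 4.3.3), two-sided, was fitted to all 15 libraries with a term per subline, over 19621 genes kept by filterByExpr at a minimum count of 10. P-values were adjusted by Benjamini-Hochberg over all of them, with a threshold of 0.05. The fit was also run on simulated counts with far fewer changed genes, in VCaP-CT only, which does not test its error rate in these data. Standard errors are the log2 fold change divided by the square root of F. Alternatives were DESeq2 1.42.0, upper-quartile scaling, no filter, only the compared sublines, the replicate number as a block, a 2-fold minimum and leaving out each library. Ratios of genes that were not tested carry exact conditional intervals at 95%.

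The members and gene lists were chosen with earlier results of these data known. Named from the lists were up to 2 genes per step that rose most and 2 that fell most with a mean log2 CPM of at least 1, and the genes most like KLK3 (5), KLK2 and KLK4 (3 each) by Pearson r. The levels of FKBP5 and the genes SEMG1, SEMG2 and C19orf48P were added after their values were seen. The labels do not say whether replicates are separate cultures, so p-values measure the spread between these libraries, which may be technical. The closest replicate pair had a chi-square of 2.82 per degree of freedom, so no 2 libraries agreed within sampling noise. 1 gene of the marker list is not reported here.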

Additional observations from a re-analysis of the deposited data

Results flagged for a closer look

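The change at the ENZ step differed between the 2 branches for 3 kallikreins, by a test of the difference itself (edgeR, adjusted over all genes). For KLK3 the step after bicalutamide was smaller by a log2 difference of −2.47, with a rise of 1.50 there and of 3.97 from VCaP-CT. For KLK2 the difference was −0.71, since KLK2 fell by 0.61 on the log2 scale after bicalutamide and had a log2 fold change of 0.10 that did not pass from VCaP-CT. For KLK4 the difference was 0.33, with log2 fold changes of 0.30 after bicalutamide and −0.03, not passing, from VCaP-CT. Each branch is 1 line of descent, whether VCaP-CT-BR had already seen ENZ is not clear, and the cause of these differences was not tested.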

How the results depend on the processing

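Over the 9 comparisons, 31 of the 36 log2 fold changes of KLK2, KLK3, KLK4 and KLK15 kept their direction and their side of the threshold in all 20 alternatives, among them every one of KLK3. The others were KLK2 and KLK4 values given in the report beside their alternatives, and 2 values near 0. KLK4 in VCaP-CT-ER against VCaP-CT was 0.00 without a filter and −0.06 to 0.04 when single libraries were left out. For KLK15 the difference between the ENZ steps was −0.09 to 0.18 when single libraries were left out. Neither passed under any alternative. With a 2-fold minimum, the number of kallikreins called dropped from 3 to 2 in VCaP-CT against VCaP-T. It dropped from 4 to 1 in VCaP-CT-BR against VCaP-CT, and from 4 to 2 in VCaP-CT-BR-ER against VCaP-CT-BR and in VCaP-CT-ER against VCaP-T. For the difference between the ENZ steps it dropped from 3 to 1. KLK4 also fell short of this minimum in VCaP-CT-BR (1.54-fold) and VCaP-CT-BR-ER (1.90-fold) against VCaP-T. KLK15 fell short of it in VCaP-CT-BR-ER against VCaP-CT-ER (1.85-fold lower). Without the genes of the mitochondrial genome the share of the kallikreins was 1.98% (VCaP-T), 0.876% (VCaP-CT) and 1.05% (VCaP-CT-ER), and on the bicalutamide branch 0.600% before ENZ and 0.422% after it, the same order of sublines.

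Replicates share only a number between sublines. Deviations of same-numbered libraries correlated between −0.524 and 0.526 over 12720 genes, all 3 pairs were above 0.1 in 0 of 10 pairs of sublines, and a library was closest to its own number in 20 of 60 cases. With a replicate block the kallikreins called were 3 in VCaP-CT against VCaP-T, as without it, KLK3 had a log2 fold change of −6.75 there, and no call on a kallikrein changed. KLK1, KLK10, KLK11 and KLK12 are limited by depth, at no more than 20 fragments in any library.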

Other observations

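The cluster runs from 50819148 to 51084245 on chromosome 19 of GRCh38, and 36 genes lie within 250 kb of its ends, of which 12 were tested. At the step to low testosterone 0 of the 12 rose and 7 fell, beside 33.1% and 32.2% of all genes, with a median log2 fold change of −0.68 against 0.03 for all genes. At the ENZ step from VCaP-CT 8 rose and 1 fell, beside 29.6% and 31.2%, with medians of 0.59 and −0.02. At the bicalutamide step 5 rose and 1 fell, beside 26.1% and 27.0%, with medians of 0.21 and −0.02. At the ENZ step after it 1 rose and 2 fell, beside 21.2% and 21.7%, with medians of −0.01 and 0.00. The most abundant of them, C19orf48P, had log2 fold changes of −0.47, 0.49, 0.28 and −0.37 at these 4 steps (edgeR adjusted p = 1.47e-05, 1.16e-05, 0.00420 and 5.58e-04). Whether these genes share anything with the kallikreins beside their position was not tested.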
